A study of Mus musculus with 6 samples.

Results

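The axon guidance ligands and receptors are the membrane and secreted proteins through which growing axons and migrating cells read their surroundings. They were selected by a rule on gene symbols, which was set with earlier results of these data known. The rule covered ephrins, Eph receptors, semaphorins of classes 3 to 7, plexins, neuropilins, Slits, Robos, netrins, Unc5 receptors, Dcc and Neo1. Of the 51912 Ensembl genes in the deposited table, 69 matched, and Ntn3 was not analysed here. The cells were R1 cells, an established line of mouse embryonic stem (ES) cells. They were held in the naive state in 2iLIF medium, then moved to N2B27 medium with FGF2 at 100 ng/ml, a fibroblast growth factor, for 24 h or for 48 h. Each time point had 3 messenger RNA libraries, and both groups received the same agent, so the comparison is of the later with the earlier time. Libraries of cells without FGF2 were not analysed here. The labels do not say that replicates were separate cultures, so p-values measure the spread between these libraries, which may be technical.

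Guidance ligands act on cells that carry the matching receptor and steer them by attraction or repulsion. Ephrins sit in the membrane of one cell and bind Eph receptor tyrosine kinases on its neighbour, so that contact can signal into both cells. Semaphorins, secreted or membrane-bound, act through plexins, and most secreted class 3 semaphorins need a neuropilin as co-receptor. Slits are secreted ligands of Robo receptors, and netrins are secreted ligands of Dcc, its relative neogenin (Neo1) and the Unc5 receptors. Outside the nervous system the same families sort cells at tissue boundaries in the early embryo and shape blood vessels.

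The libraries held 19574969 to 23133148 counts, of which the members took 0.16 to 0.161% at 24 h and 0.156 to 0.157% at 48 h. A count of 3 equalled 0.127 to 0.15 CPM, the counts scaled for library size. As a check of the labelled cell type, the levels of 9 listed genes of pluripotent cells were summed. All 9 were tested and called between the times, 5 higher at 48 h and 4 lower. Such a call, which 62.8% of all tested genes had, does not itself check the cell type. Their summed level was 3920 to 3970 CPM at 24 h and 4290 to 4370 CPM at 48 h, but the genes moved apart. Nanog, a factor of the naive state, fell from 694.7 to 174.4 CPM and Zfp42 from 1034 to 494.6 CPM. Dnmt3b, a DNA methyltransferase high in formative and primed cells, rose from 137 to 1390 CPM, Otx2 from 58.9 to 195.7 CPM and Fgf5 from 2.25 to 55.1 CPM. Markers of other cells that use guidance genes were summed in the same way. For 9 neuronal genes the sum was 242 to 252 CPM at 24 h and 161 to 175 CPM at 48 h. Of the 8 tested, Tubb3 and Stmn2, which made up most of the sum, fell, while Map2, Elavl3 and Elavl4 rose, and Dcx, which marks young neurons, had 0 counts in the 24 h libraries and 2 in each 48 h library. For 5 neural progenitor genes it was 52.1 to 54.2 and then 91.2 to 99 CPM (2 called higher, 1 lower). For 6 primitive endoderm genes it was 48.9 to 56.9 and then 16.2 to 16.3 CPM (2 called lower). Most of that sum was Lama1, which fell from 43.1 to 10.8 CPM. Gata4 also fell, Dab2 was not called, and Gata6, Sox17 and Foxa2 were too low to test. For 6 endothelial genes the sum was 17.5 to 19 and then 11.5 to 13.8 CPM, with Emcn at 0. For 7 fibroblast genes it was 2.73 to 4.24 and then 2.03 to 2.66 CPM, with Lum at 0. Of the fibroblast genes Col1a1 and Pdgfrb fell, while Dcn had 0 counts in the 24 h libraries and 23, 25 and 32 at 48 h. The part of these cell types in the results was not tested, and in bulk RNA fewer cells of a type and less RNA per cell cannot be told apart.

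Of the 69 members, 56 had enough counts to be tested, and 40 of them (71.4%) differed between the times at an adjusted p below 0.05. Among all 14889 genes tested the share was 62.8%, so a call alone was common in this comparison. Of the members 15 were higher at 48 h and 25 lower, 26.8% and 44.6% of those tested, beside 30.9% and 31.9% of all genes. Changes of at least 2-fold were called for 19 members (33.9%), against 11.2% of all genes. In the members 7 of these were higher and 12 lower, beside 4.59% of all genes higher and 6.63% lower. The members' median log2 fold change was -0.24 and its median size 0.60, against -0.01 and 0.26 over all genes. Log2 fold changes are given as 48 h minus 24 h throughout, with their standard error (SE).

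The 7 members at least 2-fold higher were Efnb2, Epha8, Sema3a, Sema3e, Sema4c, Sema6a and Unc5b. The 12 at least 2-fold lower were Efna1, Efna3, Efnb1, Epha4, Sema3b, Sema4a, Sema4f, Sema6c, Nrp2, Slit2, Robo4 and Ntn1. Of the ligands (ephrins, semaphorins, Slits and netrins), 24 of 29 tested were called (82.8%), 9 higher and 15 lower. Changes of at least 2-fold were called for 14 ligands (48.3%). Of the receptors, 16 of 27 were called (59.3%), 6 higher and 10 lower, and 5 changed at least 2-fold (18.5%). The shares of all tested genes were 62.8% called and 11.2% called at 2-fold or more. The median size of the log2 fold change was 0.92 for ligands and 0.51 for receptors, and this difference between ligands and receptors was not tested. In 43 of the 56 tested members no 48 h library overlapped the 24 h libraries, which 66.9% of all tested genes shared. The plot of log2 fold changes by family shows both directions within most families.

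**Figure D1:**
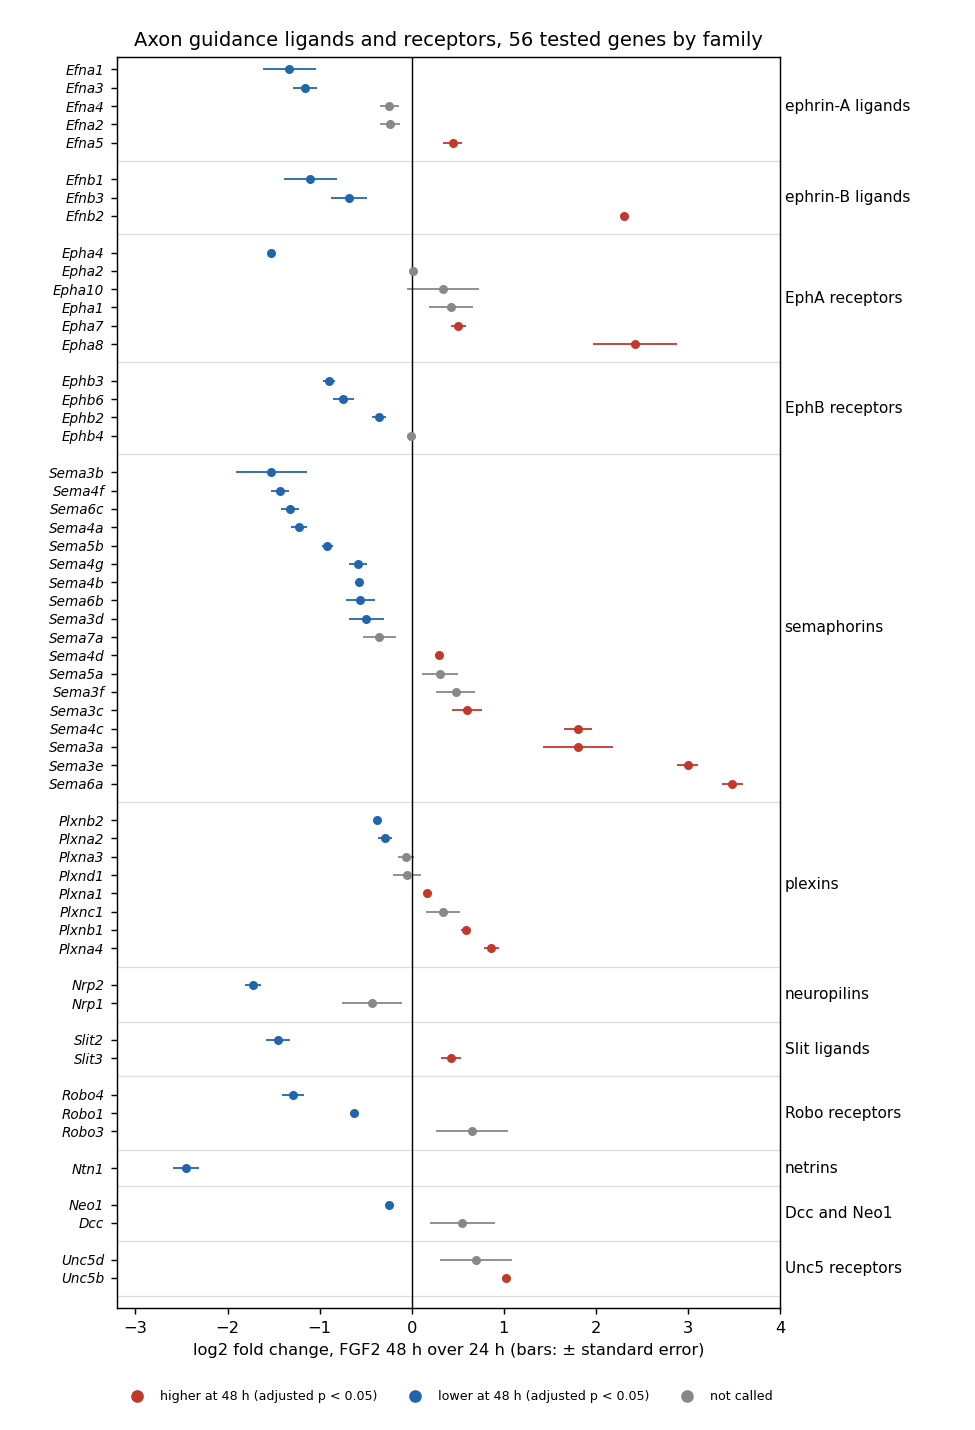
Log2 fold change (48 h minus 24 h) of the 56 tested axon guidance genes, grouped by family, with bars of 1 SE; colour marks genes called higher, lower or not called. Values run from -2.45 for Ntn1 to 3.48 for Sema6a, and the plexins stay closest to 0 among the families with several called genes.

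The 13 members too low to test held 0 to 17 counts in any library. They were the receptors Epha3, Epha5, Epha6, Ephb1, Plxnb3, Robo2, Unc5a and Unc5c and the ligands Sema3g, Sema6d, Slit1, Ntn4 and Ntn5. The count filter left these genes out, so a change in them was not tested in the main fit.

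To show the regulatory sequence beside large changes, the bases just upstream of the start site are printed for Efnb2 and Sema3e, which were higher at 48 h, and for Sema4f and Sema6c, which were lower. They are, in each direction, the 2 largest called changes of at least 2-fold with a mean of at least 5 CPM that had a matched RefSeq window without an annotated exon; Sema6a and Ntn1 had no matched window. The sequences are from RefSeq (build GRCm38.p6), 250 bases each, 5′ to 3′ on the gene's own strand, and capitals mark matches to any of the motifs searched. The windows are chr8:8661243-8661492 on the minus strand for Efnb2, chr5:14025026-14025275 on the plus strand for Sema3e, chr6:82939770-82940019 on the minus strand for Sema4f and chr3:95160170-95160419 on the plus strand for Sema6c.
Efnb2: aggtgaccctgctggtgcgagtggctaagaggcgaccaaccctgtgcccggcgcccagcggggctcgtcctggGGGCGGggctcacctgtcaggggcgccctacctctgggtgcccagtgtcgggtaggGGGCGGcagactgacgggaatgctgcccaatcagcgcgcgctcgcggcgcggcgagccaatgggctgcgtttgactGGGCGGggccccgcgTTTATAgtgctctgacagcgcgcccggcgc
Sema3e: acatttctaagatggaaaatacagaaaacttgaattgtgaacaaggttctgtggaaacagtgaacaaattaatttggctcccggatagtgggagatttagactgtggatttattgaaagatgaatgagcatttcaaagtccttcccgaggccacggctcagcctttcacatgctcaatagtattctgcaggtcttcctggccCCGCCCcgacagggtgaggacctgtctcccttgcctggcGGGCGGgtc
Sema4f: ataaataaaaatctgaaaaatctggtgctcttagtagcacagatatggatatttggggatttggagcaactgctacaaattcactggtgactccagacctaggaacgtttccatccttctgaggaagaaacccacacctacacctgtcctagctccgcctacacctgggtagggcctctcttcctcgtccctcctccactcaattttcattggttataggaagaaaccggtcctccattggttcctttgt
Sema6c: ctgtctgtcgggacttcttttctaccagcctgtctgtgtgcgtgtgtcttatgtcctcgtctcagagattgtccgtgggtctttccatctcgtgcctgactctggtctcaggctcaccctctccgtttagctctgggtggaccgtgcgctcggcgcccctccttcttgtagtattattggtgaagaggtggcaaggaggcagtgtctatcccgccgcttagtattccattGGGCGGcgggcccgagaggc

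Base composition differed among the windows in both directions of change. The Efnb2 window held 27 CpG dinucleotides at 72% GC, 3 GC boxes (GGGCGG, the core bound by SP and KLF factors) and 1 TATAAA. The Sema3e window held 7 CpG at 48% GC and 2 GC boxes. Sema6c had 15 CpG, 57.6% GC and 1 GC box, and Sema4f had 4 CpG, 46% GC and no match to any motif searched. Over the 75 RefSeq windows of the 59 members that matched the table, the median was 16 CpG and 64.4% GC, against 6 CpG and 52.4% GC over all 32851 windows.

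Both strands were searched for 7 motifs. The GC box was in 53 of the 75 member windows (70.7%) and in 32.7% of all windows. It was in 6 of 7 windows of members at least 2-fold higher and in 11 of 16 windows of members at least 2-fold lower. The other motifs were in few member windows: TAATCC, the core bound by OTX factors, in 2 (6.25% of all windows), ATGCAAAT, the octamer of POU factors, in 0 (1.6%), and ATCAAAG, bound by TCF and LEF factors, in 1 (3.21%). CCGGAAG, an ETS core, was in 2 (6.91%), TTCNNNGAA, a STAT core, in 2 (7.02%) and TATAAA in 2 (12.4%). A match is a description of these letters only.

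Of the ephrins, the transmembrane ligand ephrin-B2 (Efnb2) rose and most others fell. Efnb2 lies at chr8:8617434-8661242 on the minus strand (ENSMUSG00000001300). It measured 40.3, 41.3 and 37.1 CPM at 24 h and 189.7, 193.8 and 204 CPM at 48 h. The lowest 48 h library was far above the highest 24 h library. The log2 fold change was 2.31 ± 0.04 (SE), 4.95-fold, with an adjusted p of 3.26e-17 by edgeR's quasi-likelihood test. The 2 other B-class ephrins fell: Efnb1 went from 1.47 ± 0.247 to 0.685 ± 0.205 CPM (SD, n = 3; log2 -1.10 ± 0.29) and Efnb3 from 3.46 ± 0.818 to 2.18 ± 0.401 CPM (log2 -0.68 ± 0.19, adjusted p = 0.00593). The Efnb3 call rested on 1 library: without the third 24 h replicate the log2 fold change was -0.46 at an adjusted p of 0.0628. Per kilobase of exon, which makes levels comparable between genes, the B-class ephrins summed to 7.29 ± 0.094 CPM per kb at 24 h and 29.4 ± 0.922 at 48 h. Efnb2 supplied 79.2% ± 4.4 of that sum at 24 h and 97% ± 0.71 at 48 h.

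The A-class ephrins, held in the membrane by a lipid anchor, did not move as a block. Efna3 fell, from 7.86, 7.13 and 8.73 CPM at 24 h to 3.87, 2.88 and 3.88 CPM at 48 h, a log2 fold change of -1.16 ± 0.13 (adjusted p = 7.97e-07). Efna1, a main ligand of the EphA2 receptor, fell from 1.42 ± 0.132 to 0.564 ± 0.145 CPM (log2 -1.33 ± 0.29, adjusted p = 0.000747). This rested on few counts, 26, 32 and 33 at 24 h and 15, 13 and 9 at 48 h. Both genes had groups of libraries that did not overlap. Efna5 rose, from 7.21, 6.1 and 7.08 CPM to 10.3, 9.1 and 8.39 CPM, with a log2 fold change of 0.44 ± 0.10. Efna4, the leading A-class ephrin by exon-union length, measured 10.6, 9.47 and 8.18 CPM at 24 h and 7.69, 8.5 and 7.62 CPM at 48 h. The groups overlapped, and its adjusted p was 0.0546. Without the third 24 h replicate its adjusted p was 0.0107, and without the second 48 h replicate 0.0477. Efna2 was not called (log2 -0.24 ± 0.11, adjusted p = 0.0682), and without the third 24 h replicate its adjusted p was 0.0133. The summed level went from 15.7 ± 0.992 to 12.5 ± 0.644 CPM per kb, and the share of Efna3 in it from 20.8% to 11.7%. By coding length Efna5 was above Efna4 at 48 h, with 30.5% and 29.1% of the sum.

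Among the EphA receptors, Epha4 fell while Epha2, the most abundant, measured nearly the same at both times. Epha4, a receptor that binds ephrins of both classes, lies at chr1:77367185-77515088 on the minus strand. It stood at 108.7, 108.2 and 115.4 CPM at 24 h and at 38.7, 37 and 40.1 CPM at 48 h. No library overlapped, and the log2 fold change was -1.52 ± 0.04, a 2.87-fold lower level (adjusted p = 4.75e-15). Epha2 (chr4:141301240-141329384, plus strand) stood at 183.2, 180.3 and 183 CPM at 24 h and at 180.3, 179 and 191.1 CPM at 48 h. Its groups overlapped, and the log2 fold change of 0.01 had a 95% confidence interval of -0.0457 to 0.0665 (adjusted p = 0.753). In the sum of EphA receptors, which went from 54.2 ± 0.739 to 46.3 ± 1.35 CPM per kb, Epha2 supplied 71.8% ± 0.62 and then 84.7% ± 0.87. Epha4 supplied 25.3% ± 0.61 and then 10.3% ± 0.15 (36.1% and 16% by coding length).

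Epha7 rose, from 9.36, 9.91 and 8.94 CPM to 13.5, 13.3 and 13.2 CPM (log2 0.51 ± 0.08, adjusted p = 3.41e-05). Epha8 also passed the test, on few counts: 3, 2 and 8 at 24 h and 35, 20 and 18 at 48 h. On the log2 scale it rose by 2.42 ± 0.46, with an adjusted p of 0.000216. Epha1 and Epha10, a receptor that lacks kinase activity, were not called (adjusted p = 0.137 and 0.468). For Epha1 leaving out the third 48 h replicate gave 0.68 on the log2 scale at an adjusted p of 0.00976. A part of Epha1, 236 bp of exon, overlaps Zyx on the other strand, which had 149 to 414 counts beside 34 to 74 for Epha1, and the use of strand in counting is not given in the sources used here.

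Of the 4 EphB receptors tested, Ephb2, Ephb3 and Ephb6 fell and Ephb4 was not called. Ephb3 went from 24.88, 24.95 and 24.07 CPM to 13.39, 13.39 and 12.86 CPM (log2 -0.90 ± 0.06, adjusted p = 2.06e-09). Ephb6, which lacks kinase activity, fell from 6.36 to 3.8 CPM (log2 -0.74 ± 0.11), and Ephb2 from 17.5 ± 0.437 to 13.6 ± 1.19 CPM (log2 -0.36 ± 0.08). In all 3 the highest 48 h library lay under the lowest 24 h library. Ephb4, the receptor best known for binding ephrin-B2, lies at chr5:137350109-137378669 on the plus strand. It measured 60.6, 64.8 and 64.9 CPM at 24 h and 62.2, 66 and 61.4 CPM at 48 h. Its groups overlapped, with a log2 fold change of -0.01 and a 95% confidence interval of -0.0910 to 0.0760 (adjusted p = 0.881). Ephb4 made up 66.7% of the summed EphB level at 24 h and 76.8% at 48 h.

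**Figure D2:**
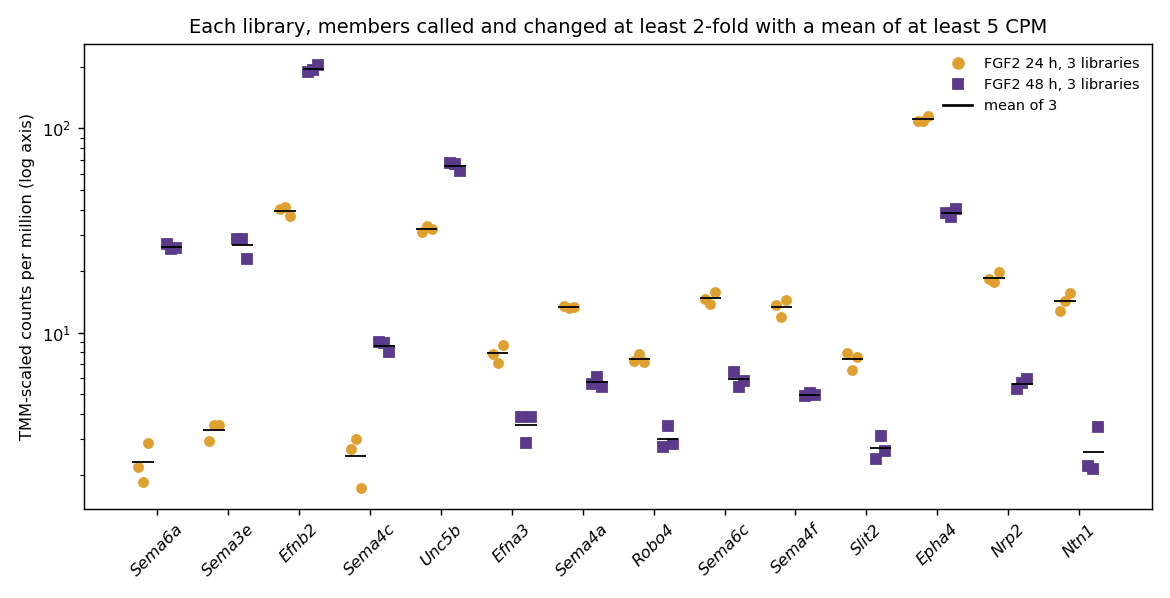
CPM, on a log axis, in each of the 6 libraries for the 14 axon guidance genes called at 2-fold or more with a mean of at least 5 CPM; points are libraries, coloured by time, and lines are means of 3. Sema6a, Sema3e, Efnb2, Sema4c and Unc5b have all 48 h points above the 24 h points, and the other 9 genes have the reverse.

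The semaphorins held the member with the largest rise and some of the larger falls. Of 18 tested, 6 were higher (33.3%) and 9 lower (50%) at 48 h, beside 30.9% and 31.9% of all genes. Changes of at least 2-fold were called for 8 (44.4%), against 11.2% of all genes. Among the secreted class 3 members 3 rose and 2 fell, in class 4 it was 2 and 4, and in classes 5 to 7 it was 1 and 3.

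Sema6a (ENSMUSG00000019647), a transmembrane semaphorin that binds plexins A2 and A4, measured 2.2, 1.85 and 2.88 CPM at 24 h and 27, 25.7 and 25.9 CPM at 48 h. Every 48 h library was far above the 24 h range, with a log2 fold change of 3.48 ± 0.11, 11.3-fold (adjusted p = 6.16e-14). Sema3e, a secreted ligand that can bind plexin D1 without a neuropilin, lies at chr5:14025276-14256689 on the plus strand. It measured 2.95, 3.52 and 3.52 CPM at 24 h and 28.7, 28.7 and 22.8 CPM at 48 h. This rise was 8.04-fold, log2 2.999 ± 0.11, with an adjusted p of 7.79e-13. Sema4c, a ligand of plexin B2, measured 2.7, 3.03 and 1.74 CPM at 24 h and 8.97, 8.87 and 8.03 CPM at 48 h. Its groups were also apart, with a log2 difference of 1.81 ± 0.15 (adjusted p = 2.04e-08).

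Other rises were smaller or rested on fewer counts. Sema3a, the classic neuropilin-1 ligand, had 13, 3 and 9 counts at 24 h and 24, 38 and 29 at 48 h (log2 1.81 ± 0.38, adjusted p = 0.000611). Sema3c went from 2.24 ± 0.379 to 3.42 ± 0.129 CPM (log2 0.61 ± 0.16). Sema4d, the ligand of plexin B1, measured 47, 48.1 and 45 CPM and then 59.5, 57.3 and 55 CPM. It rose by 0.30 ± 0.04 on the log2 scale (adjusted p = 1.01e-05), a small change that exceeded the spread between libraries.

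The falls included the semaphorin with the highest level per kilobase. Sema4b measured 93.9, 89.7 and 90.1 CPM at 24 h and 60, 61.9 and 62.5 CPM at 48 h, a log2 fold change of -0.57 ± 0.03 (adjusted p = 1.89e-10). Its share of the summed semaphorin level went from 38.8% ± 0.26 to 30.2% ± 1.4, and that of Sema4d from 14.6% to 20.7%. Sema5b, a transmembrane semaphorin with thrombospondin repeats, measured 48.5, 45.9 and 47.5 CPM and then 26.6, 26.6 and 22.1 CPM (log2 -0.92 ± 0.06). Both genes had all 48 h libraries under the 24 h range, and the sum of semaphorins went from 41.6 ± 0.772 to 36 ± 1 CPM per kb.

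The semaphorins that fell at least 2-fold above 5 CPM on average were 3 membrane-bound members, and none overlapped between the times. Sema4f (chr6:82911885-82939769, minus strand) measured 13.7, 12 and 14.5 CPM at 24 h and 4.88, 5.07 and 4.96 CPM at 48 h, a log2 fold change of -1.43 ± 0.10. Sema6c (chr3:95160457-95174024, plus strand) measured 14.7, 13.8 and 15.7 CPM and then 6.44, 5.44 and 5.82 CPM, a log2 fold change of -1.32 ± 0.09. Sema4a measured 13.5, 13.2 and 13.3 CPM and then 5.62, 6.08 and 5.41 CPM, 2.34-fold lower. Sema6c and Sema6a belong to the same class and moved in opposite directions. The lower-expressed Sema3b fell from 0.801 to 0.274 CPM (log2 -1.52 ± 0.38, adjusted p = 0.00253).

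Sema4g (log2 -0.58 ± 0.10) and Sema6b (log2 -0.56 ± 0.16) fell by less. Sema3d passed the test narrowly, with a log2 difference of -0.49 ± 0.19 and an adjusted p of 0.0315, and it was not called in 9 alternative settings, with an adjusted p of up to 0.148, among them the loss of any single library other than the third 48 h replicate. Sema3f, Sema5a and the lipid-anchored Sema7a were not called (adjusted p = 0.0594, 0.187 and 0.101). Sema3f passed without the second 24 h replicate (adjusted p = 0.04) and Sema7a without the second 48 h replicate (adjusted p = 0.0158).

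The plexins, the signalling receptors of the semaphorins, changed by less than 2-fold in all 8 tested members. Plxna1 (chr6:89316314-89362620, minus strand) measured 317.2, 319.9 and 316.9 CPM at 24 h and 352.9, 356.2 and 361 CPM at 48 h. The rise was small, log2 0.17 ± 0.02, and larger than the spread between libraries (adjusted p = 7.07e-07). Plxnb2 fell, from 107.5, 112.7 and 108.8 CPM to 84.3, 85.4 and 83.7 CPM (log2 -0.38 ± 0.03, adjusted p = 9.1e-09). Plxnb1, which like Plxnb2 is a receptor of class 4 semaphorins, rose from 32 ± 1.97 to 47.9 ± 2.56 CPM (log2 0.59 ± 0.05). Plxna4 had the largest plexin change, from 7.86, 7.96 and 8.31 CPM to 14.6, 15.2 and 14.2 CPM (log2 0.86 ± 0.08, adjusted p = 7.75e-08). Plxna2, the other receptor of Sema6a, fell from 17.1 to 14 CPM (log2 -0.29 ± 0.08).

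Plxna3, Plxnc1 and Plxnd1 were not called, with log2 fold changes of -0.06, 0.34 and -0.05. Plxnd1, the receptor of Sema3e, averaged 3.5 CPM at 24 h and 3.39 CPM at 48 h (adjusted p = 0.794). The plexins summed to 56.7 ± 0.845 CPM per kb at 24 h and 59.6 ± 0.11 at 48 h. Plxna1 supplied 62% and then 66.1% of the sum, and Plxnb2 25.1% and then 18.4%.

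Neuropilin 2 (Nrp2), the co-receptor best known for Sema3f, fell and neuropilin 1 was low at both times. Nrp2 (chr1:62703285-62818695, plus strand) measured 18.4, 17.7 and 19.7 CPM at 24 h and 5.29, 5.67 and 5.91 CPM at 48 h. The groups were far apart, with a log2 fold change of -1.73 ± 0.09, 3.31-fold lower (adjusted p = 2.55e-11). Nrp1 averaged 0.778 and 0.577 CPM (log2 -0.43 ± 0.32, adjusted p = 0.262). The neuropilin sum went from 1.65 ± 0.0847 to 0.534 ± 0.0309 CPM per kb, below that of the plexins at both times.

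The Slit ligands moved in opposite directions. Slit2 (chr5:47983138-48307733, plus strand) fell, from 7.96, 6.59 and 7.63 CPM to 2.39, 3.11 and 2.62 CPM (log2 -1.45 ± 0.13, adjusted p = 6.11e-08). Slit3 rose, from 5.36, 5.13 and 4.45 CPM to 6.72, 6.81 and 6.54 CPM (log2 0.43 ± 0.11, adjusted p = 0.00244). Neither gene's groups overlapped. The share of Slit2 in the summed Slit level per kb depended on the gene length, from 25.1% to 8.17% by exon union, 42.6% to 16.5% by longest transcript and 58.1% to 26.9% by coding length. The log2 ratio of that sum was 0.16, -0.0842 and -0.3445 in the same order.

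Of the Robo receptors, Robo1 and Robo4 fell. Robo1 (chr16:72308306-73046095, plus strand), the main Slit receptor in these cells by level, measured 98.6, 98.4 and 97.6 CPM at 24 h and 62.2, 61.1 and 66.9 CPM at 48 h. The 24 h libraries lay close together and above every 48 h library, with a log2 difference of -0.63 ± 0.04 (adjusted p = 1.08e-10). Robo4, best known from endothelium, measured 7.26, 7.81 and 7.16 CPM and then 2.76, 3.47 and 2.84 CPM (log2 -1.29 ± 0.12, adjusted p = 9.97e-08). Of the endothelial markers Vwf fell (11.6 to 4.24 CPM), Cldn5 rose (0.52 to 1.34 CPM), Tek was not called (5.97 and 6.65 CPM), and Cdh5, Erg and Emcn were at or near 0. Their part in the fall of Robo4 was not tested. Robo3, the neighbour of Robo4 at 0.553 kb, was not called (log2 0.65 ± 0.39, adjusted p = 0.159). The Robo sum went from 7.42 ± 0.0657 to 4.51 ± 0.14 CPM per kb.

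Netrin 1 (Ntn1) had the largest fall of the members, and Unc5b, one of its repulsive receptors, rose. Ntn1 (chr11:68209364-68400823, minus strand) measured 12.8, 14.3 and 15.6 CPM at 24 h and 2.21, 2.15 and 3.43 CPM at 48 h. The log2 fold change was -2.45 ± 0.14, a 5.47-fold lower level (adjusted p = 1.65e-10). Unc5b (chr10:60762593-60831581, minus strand) measured 31.1, 33.4 and 32 CPM and then 67.7, 67.2 and 62 CPM. All 48 h libraries lay above the 24 h range, with a log2 difference of 1.03 ± 0.05 (adjusted p = 4.71e-12). Neo1 (chr9:58874687-59036441, minus strand), a netrin and repulsive guidance molecule receptor, measured 136, 128.9 and 123.6 CPM and then 108.3, 112.4 and 106.1 CPM. It fell by 0.25 on the log2 scale, with an SE of 0.03 and no overlap (adjusted p = 9.88e-06). Dcc, the attractive netrin receptor, averaged 0.492 and 0.714 CPM and was not called (log2 0.55 ± 0.35, adjusted p = 0.181), and Unc5d was not called either (log2 0.70 ± 0.39).

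Per kilobase, the receptors of the netrin family were above their ligand at both times. The netrin sum, led by Ntn1, was 2.35 ± 0.227 and then 0.483 ± 0.0972 CPM per kb. Neo1 and Dcc summed to 14.9 and then 12.6 CPM per kb, and the Unc5 receptors to 5.26 ± 0.163 and then 10.7 ± 0.53. The plot of family sums shows the largest ratios for the B-class ephrins (4.04-fold higher at 48 h) and the netrins (a log2 ratio of -2.29), and the plexins as the family with the smallest (0.07). The sums themselves depend on the gene length used: they were 1.01 to 2.03 times as high by longest transcript and 1.57 to 6.69 times as high by coding length.

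**Figure D3:**
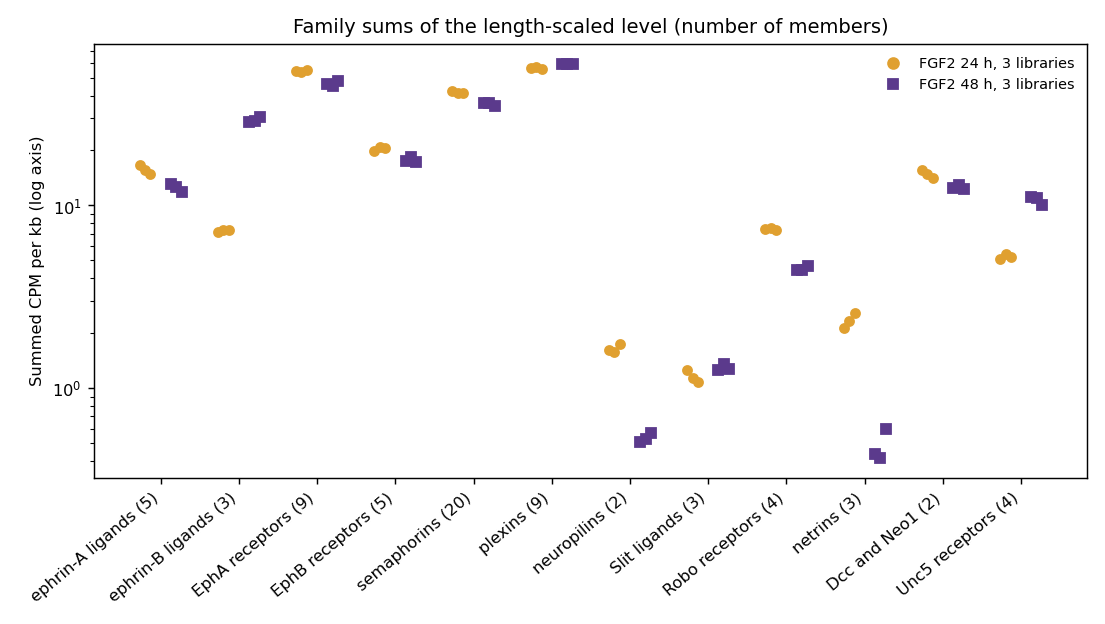
Summed level of each axon guidance family in CPM per kb of exon, 1 point per library, 24 h and 48 h side by side. In every family the points of the times are apart: B-class ephrins, Unc5 receptors, plexins and Slits (the Slits by exon union only, the means being lower at 48 h by the other lengths) are higher at 48 h, and the other 8 families are lower.

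By exon-union length, Sema6a moved furthest in the order of members by level per kilobase, from rank 45 to rank 16, followed by Sema3e (41 to 17) and Ntn1 (21 to 42). Among the most abundant members Efnb2 went from rank 12 to rank 3. At 24 h the order began with Epha2 (39 CPM per kb), Plxna1, Sema4b, Neo1, Plxnb2, Epha4 and Ephb4. At 48 h it began with Plxna1, Epha2, Efnb2, Ephb4, Neo1, Plxnb2 and Sema4b. Epha4 went from rank 6 at 13.8 CPM per kb to rank 12 at 4.79, and Unc5b reached rank 8 at 48 h. The order at the top depended on the gene length: at 48 h it began with Epha2, Efnb2 and Plxna1 by longest transcript and with Efnb2, Plxna1 and Epha2 by coding length.

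**Figure D4:**
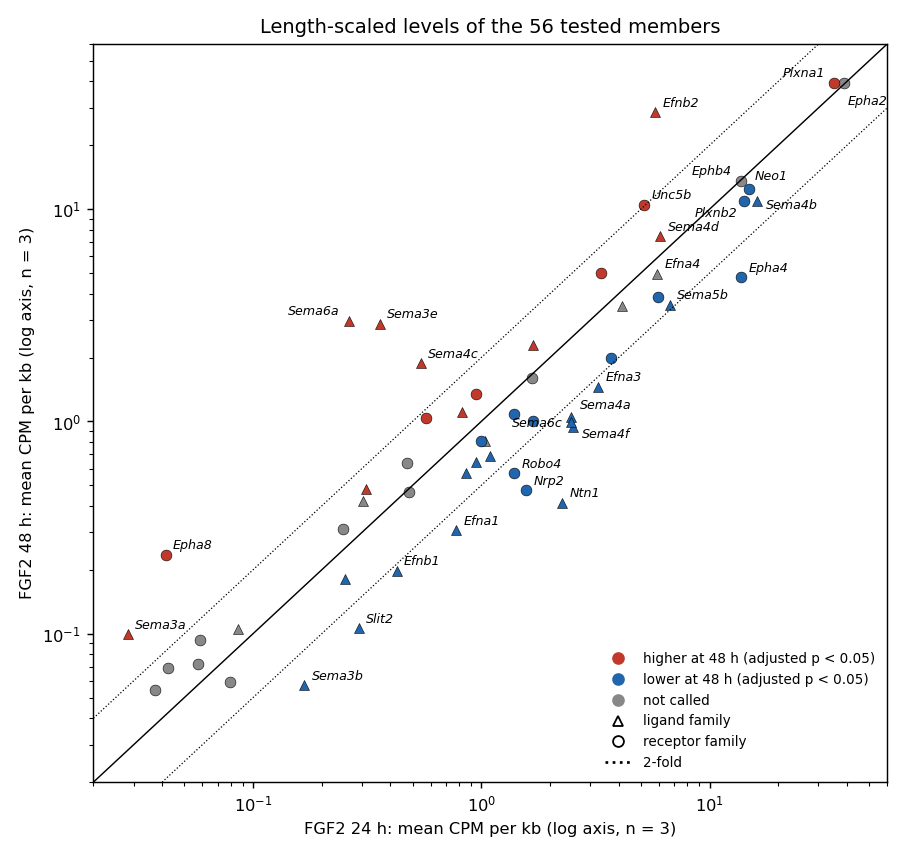
Mean level of each tested axon guidance gene at 24 h (x axis) against 48 h (y axis) in CPM per kb of exon, both axes log, with the line of equal levels and dotted lines at 2-fold; triangles are ligands and circles receptors. Efnb2, Sema3e and Sema6a sit above the line, Epha4, Nrp2 and Ntn1 below it, and Epha2 and Ephb4 on it.

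Genes that act with these receptors, as coreceptors, further ligands or effectors on the cytoskeleton, were described from a separate list. Of its 98 genes 91 were tested, and 63 (69.2%) were called, 30 higher and 33 lower, near the 62.8% of all genes. Changes of at least 2-fold were called for 12 (13.2%), beside 11.2% of all genes. Of all tested genes 30.9% were higher and 31.9% lower. By group, 10 of 22 tested Eph and ephrin effectors were higher (45.5%) and 8 lower (36.4%). For 23 semaphorin and plexin partners it was 4 (17.4%) and 13 (56.5%). For 19 Slit and Robo partners it was 7 (36.8%) and 4 (21.1%), and for 17 netrin receptor partners 5 and 5 (29.4% each). Differences between these groups and all genes were not tested.

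The partner with the largest rise was Trio, a guanine nucleotide exchange factor that acts downstream of Dcc. It went from 19.6 ± 1.29 to 114.7 ± 4.59 CPM (SD, n = 3), which on the log2 scale is 2.55 ± 0.05 (adjusted p = 8.64e-17). Its relative Kalrn fell from 11 ± 0.583 to 5.62 ± 0.262 CPM (log2 -0.97 ± 0.09). Pak1, a kinase activated by Rac and Cdc42, rose by 1.10 ± 0.03 on the log2 scale, and so did the adaptor Bcar1. Ptpn13, a phosphatase with PDZ domains, rose by 1.15 ± 0.04. The collapsin response mediators, cytosolic proteins of the semaphorin pathway, diverged, with Crmp1 higher (log2 0.67 ± 0.04) and Dpysl3 lower (log2 -0.84 ± 0.05).

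Ablim1, an actin-binding LIM protein, had the largest fall among partners above 5 CPM, from 36.3 ± 1.45 to 5.25 ± 0.545 CPM (log2 -2.79 ± 0.08, adjusted p = 1.2e-14). Erbb2, a receptor tyrosine kinase that associates with plexin B1, fell (log2 -1.10 ± 0.09), as did Srgap3, a GTPase-activating protein that binds Robo1 (log2 -1.05 ± 0.07). Srgap1 and Srgap2 were not called, at log2 fold changes of -0.18 and 0.02. Rnd1, a small GTPase that binds plexins, fell from 4.9 to 1.63 CPM (adjusted p = 1.2e-07).

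Other ligands of the same receptors were on that list. The Unc5 ligands Flrt2 (log2 -0.94, adjusted p = 3.36e-06), Flrt3 (log2 -0.49, adjusted p = 0.00184) and Flrt1 (log2 -1.41, adjusted p = 0.00104) fell while Unc5b rose. The neogenin ligands Rgma and Rgmb were not called (adjusted p = 0.836 and 0.0531). Nell2, a ligand of Robo3, rose from 1 to 2.55 CPM (log2 1.35, adjusted p = 6.1e-05).

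**Figure D5:**
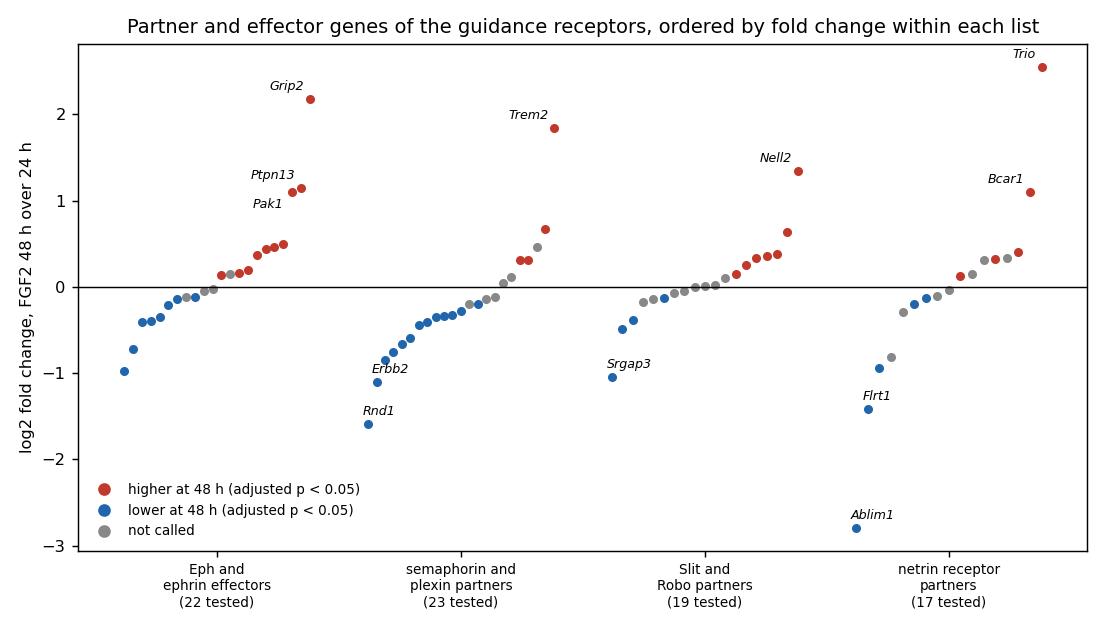
Log2 fold change (48 h minus 24 h) of the tested partner and effector genes in 4 groups, ordered by fold change within each, with colour for genes called higher, lower or not called. Trio at 2.55 and Ablim1 at -2.79 mark the ends of the range, and each group holds genes of both directions.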

How the data were processed

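Messenger RNA of R1 mouse ES cells was sequenced after 24 h and 48 h in FGF2, in 3 libraries each, grouped by their titles. The deposited table holds estimated counts per gene made by the authors with RSEM, without scaling for depth or length. Per the submitters' processing notes, cutadapt 1.9.1, STAR 2.5.2, RSEM 1.3.0 and the build GRCm38 were used. Annotation release, strand setting and filters are not given in the sources used here. Reads shared between similar genes are divided by RSEM, which can leave fractional counts. The members had none, though reads assigned whole to a single gene would not show.

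Symbols and exon lengths came from GENCODE M21 (GRCm38), which named 51719 of the 51912 identifiers. All 414 values of the 69 members were whole numbers. Counts were rounded, filtered (filterByExpr, minimum count 10), scaled by TMM and tested in edgeR 4.0.16 (R 4.3.3) by the quasi-likelihood test over all 14889 genes, with Benjamini-Hochberg adjustment and a threshold of 0.05. SE is the size of the log2 fold change divided by the square root of F. Adjusted p-values are over all genes tested. The script was tested on simulated data. Levels were compared between members as CPM per kb of exon union, and where stated by longest transcript or coding length. Sums of marker genes were in CPM without length scaling.

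The members and all gene lists were chosen with earlier results of these data known. Any member could be named. Values in every library were given for called members of at least 2-fold and 5 CPM and for the leading member of each family, and for some others chosen after their values were seen. Of the partner genes, the 5 largest called rises and falls above 5 CPM and those whose role pairs with a named member were named. A further group within the partner list counts in its totals but is not reported here. Alternatives covered scaling, filters, DESeq2 1.42.0, limma voom (limma 3.58.1), glmTreat, the threshold, the replicate block and leaving out each library. Replicates of a group differed by more than sampling noise (chi-square per degree of freedom 1.84 to 2.29). Same-numbered libraries did not deviate together, with correlations of -0.0458, -0.0427 and -0.00852. Counting intervals and floors cover counting error only.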

Additional observations from a re-analysis of the deposited data

How the results depend on the processing

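The 40 called members ranged from 33 (glmTreat against 1.2-fold) to 42 (library size only) over the alternatives, and were 39 in DESeq2 and 40 in limma voom. The number of members tested ran from 48 to 69 with the filter. The share of all genes called is given for the main fit only, so the other counts have no such share beside them. The 19 members changed at least 2-fold kept direction and call in every setting that tested them. Leaving out each library in turn gave 39 to 42 called members, 15 to 17 higher and 24 to 26 lower, and 59 to 64 called partner genes. The 63 called partner genes became 40 with glmTreat against 1.2-fold, which tests for a larger change. The labels do not say whether same-numbered libraries were paired. With the replicate block 41 members were called, Efna2 being the one gained (log2 -0.24, adjusted p = 0.0392). The members Ephb2, Sema3d, Sema4d, Plxna1, Plxna2, Slit3 and Neo1 were not called by glmTreat. Signs turned only for values that were not called. Epha2 was at -0.0501 with library size only and at -0.0189 to 0.0302 without single libraries. Ephb4 was at 0.0002315 in DESeq2 and at -0.0401 to 0.0143 without single libraries. In the same way Plxna3 ran from -0.123 to 0.0257 and Plxnd1 from -0.127 to 0.0834. The log2 ratio of the Slit sum, 0.16 by exon union, was -0.0842 by longest transcript and -0.344 by coding length. The cause of these turns was not tested. With library size only, the median over all genes lay at -0.07 on the log2 scale in place of -0.01. Family sums were also computed with RLE scaling and with library size only, chosen after seeing the data. Depth limits Efna1, Efnb1, Epha8, Sema3a, Sema3b and the 13 untested members, which rest on few counts.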

Other observations

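Some members lie close together in the genome. Efna1 and Efna3, both lower at 48 h, are 32.8 kb apart, and Efna4, which was not called, follows Efna3 at 10.4 kb. Ephb2, which was lower, and Epha8, which was higher, are 93.4 kb apart. Sema3b, which was lower, and Sema3f, which was not called, are 72.3 kb apart.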
